A study of Mus musculus with 12 samples.

Results

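B3gnt3 and Snx20 are 2 of the 21951 protein-coding genes annotated on the mouse genome, and this account describes how open their chromatin was with and without Zfp266. They were selected on the reprogramming Zfp266 KO against control contrast of these same libraries, together with their use in reporter assays by the study, so all KO against control values at their listed intervals are given as a description with no test. Each gene was taken with 20 kb on either side of its body (GRCm38, GENCODE M21). The windows held 19 of the 273256 intervals obtained by merging the broad peaks of the 4 groups, 11 around B3gnt3 and 8 around Snx20.

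Open chromatin was profiled with Omni-ATAC-seq, in which a transposase cuts accessible DNA and the cut sites are sequenced, in 12 libraries of 50000 starting cells each. The labels give all cells as strain 129 mouse embryonic fibroblasts (MEFs) of passage 2 from E12.5 embryos, and the transgenic cells among them carried Cas9 and a doxycycline-inducible cassette for OCT4, SOX2, KLF4 and MYC (OSKM). MEF control and reprogramming control cells (genotype wild type) received a non-targeting sgRNA, MEF Zfp266 KO and reprogramming Zfp266 KO cells an sgRNA against Zfp266, and every group was sorted 96 h after transduction. The reprogramming groups spent the last 72 of those hours in medium with vitamin C (10 µg/ml) and doxycycline (300 ng/ml), while the MEF groups stayed in fibroblast medium. Each group had 3 libraries. The knockout cells were a pool of transduced cells and not a clone, the fibroblasts came from chimeric embryos and could include cells without the transgenes, and reprogramming cells were grown mixed with wild-type fibroblasts before cells expressing the factors were sorted. The labels do not say whether the 3 libraries of a group came from separate cultures, so every SD and SE below measures the spread between libraries, which may be technical. Editing of Zfp266 itself cannot be read from these tables and was not tested here.

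ZFP266 is a KRAB zinc finger protein, a class of DNA-binding factors that typically recruit repressive chromatin to transposable elements. B1 elements are a family of short interspersed nuclear elements (SINEs) of rodents, present in very many copies and frequent in introns. B3GNT3 is a Golgi enzyme that adds N-acetylglucosamine in a β-1,3 linkage and extends core 1 O-glycans, a step in making ligands for selectins. SNX20 is a sorting nexin that binds the cytoplasmic tail of PSGL-1, the P-selectin ligand of leukocytes, and is best known from blood cells.

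Start-site peaks of marker genes were used to check the cell types named in the labels. All 7 fibroblast markers (Col1a1, Col1a2, Col3a1, Thy1, Twist1, Prrx1 and Pdgfrb) had a peak over the start site in both MEF groups, and 5 of 7 had one in both reprogramming groups, the collagen genes Col1a1 and Col1a2 being without. Of 6 epithelial markers, 4 had a start-site peak in both MEF groups and 6 in both reprogramming groups. Over all protein-coding genes the share with a start-site peak was 62.6% to 63.5% in the 4 groups, which the epithelial markers in MEF hardly exceeded. Among 8 leukocyte markers, Cd68 alone had a peak in the MEF groups, and Cd68 and Itgam had one in the reprogramming groups, whereas Ptprc, Spi1, Tyrobp, Fcer1g, Coro1a and Laptm5 had none in any group. In bulk samples, fewer open cells and less open chromatin per cell cannot be told apart.

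Only intervals past the authors' adjusted p-value of 0.05 are listed in the deposited tables. In reprogramming, 4 intervals of the windows were listed, 2 for each gene, and every one was more open in KO. For background, 0.557% of the 273256 merged intervals were listed as more open in reprogramming, and since the genes were chosen on that contrast nothing is read from the difference. In MEF, 0 intervals of the windows were listed, where 0.175% of all merged intervals were more open in KO. A listed interval lay over the start site of each gene (exon 1, the start of intron 1 and upstream sequence), and the other lay inside an intron.

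Snx20 showed the larger KO against control difference at its start site, 2.80 times. Snx20 (ENSMUSG00000031662.8) occupies chr8:88626563-88636128 on the minus strand in 4 exons, and its start-site interval, chr8:88634971-88636272, reached from -144 to 1157 bp of the start site, so that it covered exon 1 and mostly intron 1. The 3 reprogramming control libraries had 193, 164 and 184 normalised counts (reads divided by the library's size factor) in this interval, and the 3 reprogramming Zfp266 KO libraries had 497, 519 and 502. The lowest KO library was 2.57 times the highest control library, so the groups did not overlap, as was the case at all 1522 intervals listed as more open (100%), which passed the threshold on the same libraries. The means were 181 ± 14.9 in control and 506 ± 11.7 in KO (SD, n = 3), and the log2 ratio was 1.48 ± 0.07 (SE, on log2 of the normalised count plus 1). In MEF the same interval had 29.6 normalised counts as a mean of 6 libraries, control and KO together. This mean was recovered from the deposited mean over all 12 libraries and has no error. Reprogramming control was therefore 6.10 times and reprogramming KO 17.1 times the MEF mean, and the order of the levels was MEF, reprogramming control, reprogramming KO.

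The other Snx20 interval, chr8:88630845-88631328, is 484 bp of intron 2, from 4800 to 5283 bp downstream of the start site. It had 84.9, 81.7 and 83.5 normalised counts in the control libraries and 239, 239.9 and 256 in the KO libraries. Control libraries (83.4 ± 1.64) lay well below the KO libraries (245 ± 9.41, SD, n = 3), without overlap. KO was 2.94 times control, with a log2 ratio of 1.54 ± 0.04 (SE), and reprogramming control was 3.19 times the MEF mean of 26.1. The 2 intervals of Snx20 thus had log2 ratios that differed by less than the SE at the start site. Per kb of interval, the intron 2 interval was the denser in control (172 against 139 normalised counts per kb) and in KO (506 against 389).

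B3gnt3 differed from Snx20 in that its start site was open in every group and differed little between KO and control. B3gnt3 (ENSMUSG00000031803.8) occupies chr8:71690756-71701789 on the minus strand in 3 exons, and its start-site interval, chr8:71700224-71703410, reached from -1621 to 1565 bp of the start site. The control libraries had 337, 314 and 341 normalised counts and the KO libraries 430.0, 460.1 and 409.6. The groups did not overlap, but the lowest KO library was only 1.20 times the highest control library. The means were 331 ± 14.6 in control and 433 ± 25.4 in KO (SD, n = 3), 1.31 times as many, with a log2 ratio of 0.39 ± 0.06 (SE). When counts were divided by the total of the listed intervals in place of the size factor, this log2 ratio turned to -0.32, and those of the other 3 intervals were lower than with size factors, 0.77 at the B3gnt3 intron, 0.84 at the Snx20 intron and 0.78 at the Snx20 start site. The MEF mean was 159, so reprogramming control was 2.08 times MEF. Neither start site was closed without the knockout in reprogramming. That of Snx20 was already above the MEF mean in reprogramming control and more open in KO, and at B3gnt3 the larger KO against control difference lay in intron 1.

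The intron 1 interval of B3gnt3, chr8:71698181-71699230, began 2559 bp and ended 3608 bp downstream of the start site. It had 76, 88.9 and 84.8 normalised counts in control and 235, 230.0 and 235 in KO. The KO libraries averaged 233 ± 2.89, an SD smaller than their counting error of 6.24% to 8.22%, and every one exceeded the highest control library by at least 2.59 times. Control averaged 83.2 ± 6.61 (SD, n = 3), KO was 2.80 times control and the log2 ratio was 1.48 ± 0.07 (SE). The MEF mean was 24.2, and reprogramming control was 3.44 times it. Per kb it had 79.3 normalised counts in control, 222 in KO and 23.0 in MEF, lower than the 172, 506 and 54.0 of the shorter intron 2 interval of Snx20.

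**Figure D1:**
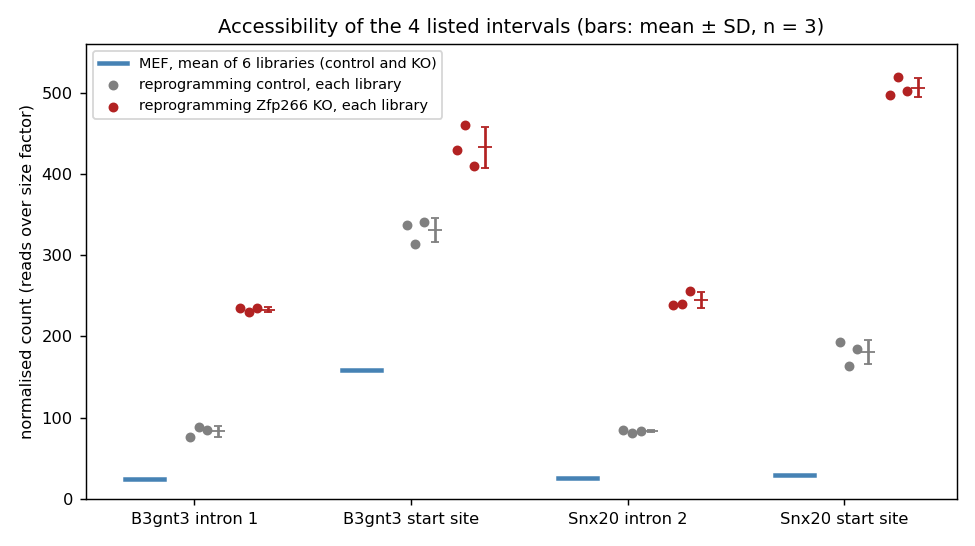
Normalised count (y axis, reads over size factor) at the 4 listed intervals (x axis). Points are the 3 libraries of reprogramming control (grey) and reprogramming Zfp266 KO (red), bars beside them are the mean ± SD, and the blue line is the mean of 6 MEF libraries; KO lies above control at every interval, by 2.80 to 2.94 times except at the B3gnt3 start site, where it is 1.31 times.

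Raw reads behind these values ran from 64 to 98 in the control libraries at the introns and from 141 to 346 at the start sites. Counting error alone was 10.1% or more of the value at the introns in every control library, and 5.38% to 8.42% at the start sites. The SDs of the control libraries at the introns were below this counting error, so the SDs and SEs there may understate the error. Among the 1522 intervals listed as more open in reprogramming, the intron 2 interval of Snx20 ranked 316 by log2 ratio, its start-site interval 346, the intron 1 interval of B3gnt3 348 and its start-site interval 1487. The median log2 ratio of all 1522 was 1.03, so 3 of the 4 lay above it and the B3gnt3 start site lay near the bottom of the list. In counts per interval, not corrected for length, the start sites stood high, since 95.1% of the 1522 had no more control counts than the B3gnt3 start site and 83.6% no more than that of Snx20. Per kb the control levels of the start sites, 104 at B3gnt3 and 139 at Snx20, were below the 172 of the Snx20 intron 2 interval. Reprogramming control exceeded the MEF mean at all 4, as it did at 83.2% of the 1522, whose median ratio was 3.72.

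**Figure D2:**
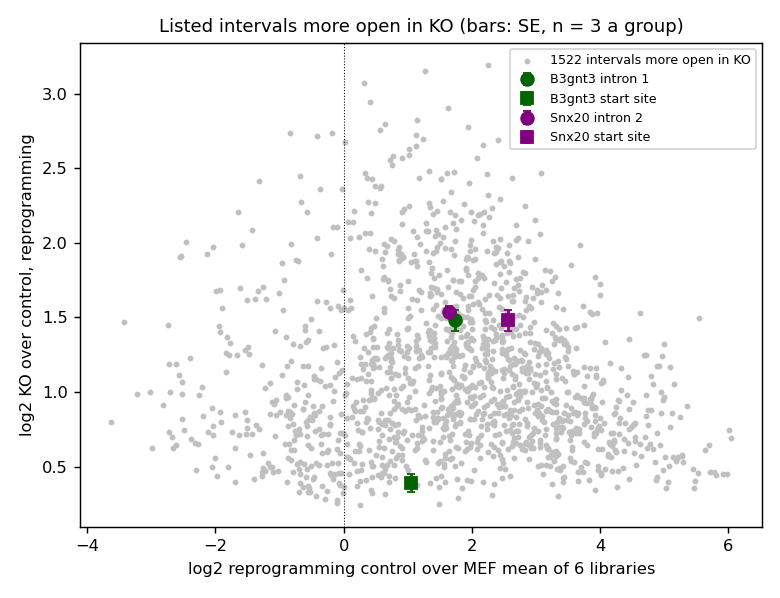
Log2 ratio of KO over control in reprogramming (y axis) against log2 ratio of reprogramming control over the MEF mean (x axis) for the 1522 intervals listed as more open (grey) and the 4 intervals of B3gnt3 (green) and Snx20 (purple), with SE bars. The introns (circles) and the Snx20 start site lie near 1.5 on the y axis, and the B3gnt3 start site lies at 0.39.

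Of the 1522 intervals, 41 (2.69%) lay within 1000 bp of the start site of a protein-coding gene. Among these 41, Snx20 ranked 3 by log2 ratio and B3gnt3 ranked 28, with a median of 0.46. By the ratio of reprogramming control over MEF, Snx20 ranked 8 and B3gnt3 14, with a median of 1.36. The profile most like that of the Snx20 start site, over the MEF mean and the 6 reprogramming libraries, was that of Piwil2, which encodes a PIWI protein of the germ line and is the other gene of the reporter assays. The Euclidean distance between the centred log2 profiles was 0.48, against a median of 2.80 over 40 other start-site intervals. At the Piwil2 start site (chr14:70428951-70430258) the control libraries had 134, 119.8 and 154 normalised counts, the KO libraries 303, 288 and 314, and the MEF mean was 17.9. KO did not overlap control there and the ratio was 2.22, below that of Snx20. The next nearest profiles were those of Cga (0.72), Hsd17b14 (0.89), Gm20537 (1.18) and Trim43b (1.22). For B3gnt3 the nearest was Hesx1, a homeobox gene, at 0.09, followed by Capns1 (0.41), Frrs1 (0.42), Extl3 (0.44) and Mlh3 (0.46), against a median of 1.49. These 5 all had high MEF levels, from 228 to 492 normalised counts, and log2 ratios from 0.32 to 0.51.

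The peak lists gave the same windows without the threshold of the tables. Each group has 1 list, called on its merged replicates, so peak values carry no replicate error. Over the Snx20 start site, MEF control had no peak. MEF Zfp266 KO had a weak peak of 477 bp (fold 1.92 over background, -log10 q of 2.06), whose fold exceeded 8.42% of the peaks of that list. In reprogramming the peak covered 1232 bp in control (fold 3.72, -log10 q 20.9) and 1290 bp in KO (fold 3.80, -log10 q 48.7). The fold thus hardly differed between reprogramming groups while -log10 q and the normalised counts did. This pattern, a start-site peak in every group but MEF control, was found at 74 of 21938 protein-coding genes on the chromosomes 1 to 19, X and Y (0.337%).

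The listed interval in intron 2 of Snx20 had no peak in either MEF group. The reprogramming control peak was 409 bp wide (fold 2.30, -log10 q 8.49), and the KO peak was 484 bp wide (fold 3.33, -log10 q 45.4). The listed interval in intron 1 of B3gnt3 was likewise without a peak in MEF. Its reprogramming control peak of 503 bp (fold 1.86, -log10 q 3.71) was the weaker, and in KO it was 1050 bp wide (fold 2.66, -log10 q 17.3). Over the B3gnt3 start site the folds were 2.93 in MEF control, 3.17 in MEF Zfp266 KO, 3.09 in reprogramming control and 3.13 in reprogramming Zfp266 KO. These 4 values lie close together, and a start-site peak in all groups was the commonest pattern, at 12837 of 21938 genes (58.5%). The narrow blocks of the gapped peak lists placed 2 parts in this peak in each group. In MEF control the blocks ran from -1514 to -847 bp and from -46 to 1023 bp of the start site, and in reprogramming KO from -1596 to -688 bp and from 12 to 214 bp. The block nearest the start site was 1070 bp in MEF control, 1086 bp in MEF Zfp266 KO, 304 bp in reprogramming control and 203 bp in reprogramming KO. It covered the start site in both MEF groups, and in both reprogramming groups it began downstream of it.

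The remaining 15 merged intervals of the windows were not listed in either table, and 8 of them had a peak in all 4 groups. Of the 7 others, 2 had peaks in both MEF groups alone and 0 in both reprogramming groups alone. A peak over the last exon of Snx20 had folds of 6.28, 6.28, 4.12 and 2.92 in MEF control, MEF KO, reprogramming control and reprogramming KO. Nod2, an intracellular receptor for bacterial peptidoglycan whose start site lies at -11187 bp from that of Snx20, had folds of 6.64, 6.18, 4.48 and 3.87 in the same order. Both had lower folds in the reprogramming lists than in the MEF lists, as had start-site peaks in general (median fold over all genes with a peak 4.91 in MEF control and 3.99 in reprogramming control). In the B3gnt3 window the start sites of Unc13a (3.29, 3.22, 3.04 and 2.68) and of the cytokine-receptor kinase Jak3 (3.92, 3.67, 3.32 and 3.79) had a peak in every group. Insl3, a hormone of the testis, had a start-site peak only in the MEF Zfp266 KO list, of fold 2.24. The counts of peaks in the windows were 14, 16, 14 and 15.

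**Figure D3:**
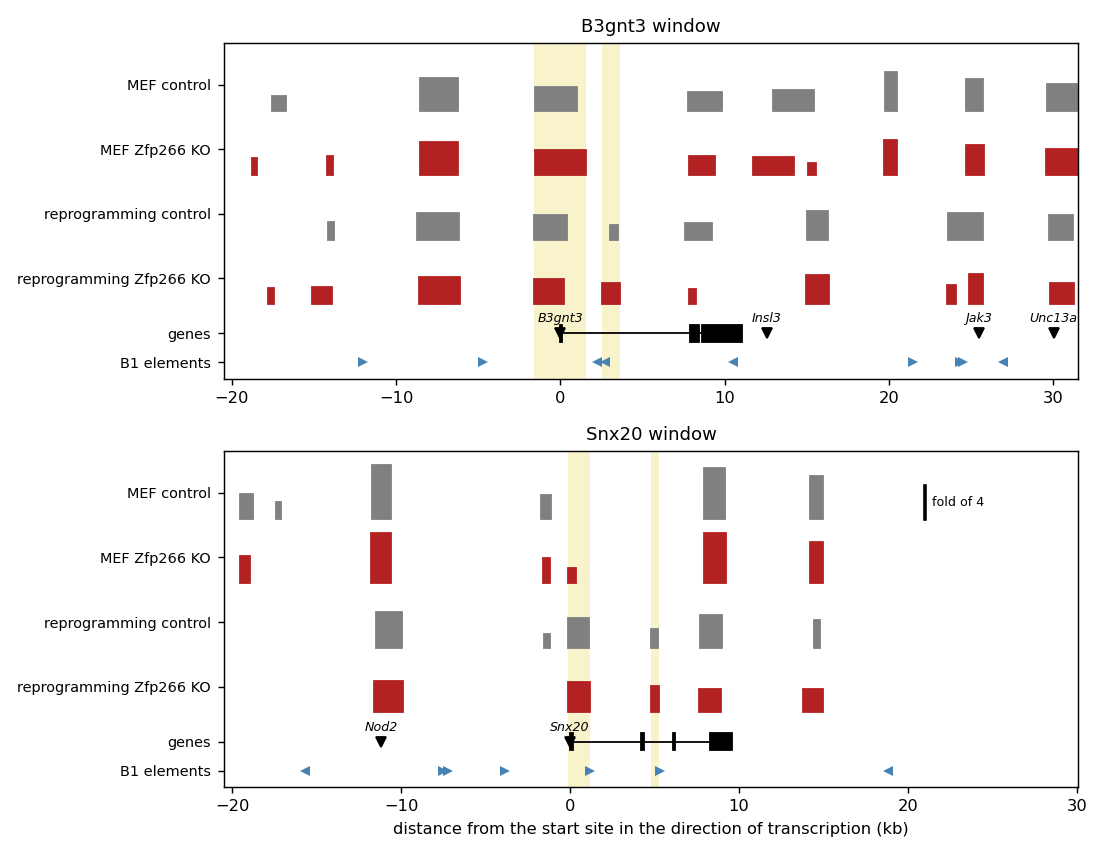
Broad peaks of the 4 groups around B3gnt3 and Snx20, by distance from the start site in the direction of transcription (x axis, kb). The height of each box is the fold over background (scale bar: fold of 4), control is grey and KO red, yellow shading marks the 4 listed intervals, triangles mark start sites, and blue arrowheads are B1 elements, pointing right where they run in the direction of the gene. The peaks of the listed intron intervals are present in the reprogramming rows alone, and the peak over the B3gnt3 start site is present in every row.

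B1 elements were searched because the study put SINE-containing regions of these genes into reporters, so their presence is not independent of the choice of the genes. The windows held 16 B1 elements, 9 around B3gnt3 and 7 around Snx20, and 10 of the 16 ran in the direction of the gene. Of these, 3 touched a listed interval, 2 touched another merged interval and 11 touched none. A search confined to the listed intervals found 1, because at Snx20 the intervals ended inside an element. The elements at the listed intervals are shown in their own 5′ to 3′ direction, from the reference genome GRCm38.p6, and capitals mark the bases that lie inside the listed interval.
Snx20 intron 1, chr8:88634872-88635011, minus strand: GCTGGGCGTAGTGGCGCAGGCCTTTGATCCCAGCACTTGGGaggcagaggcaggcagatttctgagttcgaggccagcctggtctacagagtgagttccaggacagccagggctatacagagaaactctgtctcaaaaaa
Snx20 intron 2, chr8:88630761-88630888, minus strand: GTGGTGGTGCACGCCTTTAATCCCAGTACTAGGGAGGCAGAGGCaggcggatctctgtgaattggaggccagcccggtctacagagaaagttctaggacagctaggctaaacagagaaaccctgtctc
B3gnt3 intron 1, chr8:71698983-71699097, plus strand: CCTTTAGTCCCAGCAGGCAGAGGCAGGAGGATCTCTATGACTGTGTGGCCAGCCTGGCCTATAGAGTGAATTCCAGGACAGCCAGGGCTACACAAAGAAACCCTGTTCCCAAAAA
At Snx20 both elements ran in the direction of the gene and entered the listed interval with their 5′ head, by 41 bases at the start-site interval and by 44 bases at the intron 2 interval. Both intervals therefore had their downstream edge inside a B1 element. That edge was the edge of the reprogramming KO peak. The reprogramming control peaks reached 1115 and 5218 bp from the start site and did not touch the elements, which began at 1117 and 5240 bp. The copy at the start-site interval was 92.9% identical to the B1 probe over 140 aligned bases, and that in intron 2 was 87.6% identical over 129. At B3gnt3 the copy wholly inside the intron 1 interval ran against the gene, lacked its head (it aligned from base 21 of the probe) and was 80.3% identical. This copy ended at 2806 bp from the start site and lay inside the reprogramming KO peak, while the reprogramming control peak began at 3010 bp. The B3gnt3 start-site interval had no B1 element within 500 bp.

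Shares over all merged intervals of like length (within 10%) give the background to these counts. A B1 element crossed an edge of 4.46% of 22300 intervals like the Snx20 start-site interval and of 3.54% of 24234 like its intron 2 interval. Among the listed more open intervals of these lengths, a B1 element crossed an edge of 27.0% of 152 and 53.5% of 114. Counted by touching, as for B3gnt3 below, the shares were higher. They were 13.3% and 5.60% of the intervals of like length, and 86.2% and 82.5% of the listed more open ones. A B1 element touched 10.7% of 25643 intervals like the B3gnt3 intron 1 interval, and 88.6% of the 149 listed more open ones. For the B3gnt3 start-site interval, which held none, the shares were 28.7% of 4120 intervals and 85.1% of 47. Among the 41 listed start-site intervals, 34 were touched by a B1 element, Snx20 and Piwil2 included.

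Each listed interval also held a KLF string, here one of GGGCGTGG, GGGCGGGG, GGGTGTGG and GGGTGGGG on either strand. The B3gnt3 start-site interval held 6 and the other intervals 1 each. Such a string was present in 42.2% of intervals like the Snx20 start-site interval, 16.9% of those like its intron 2 interval, 33.7% of those like the B3gnt3 intron 1 interval and 79.9% of those like the B3gnt3 start-site interval, of which 11.9% held at least 6. Among the listed more open intervals of like length the shares with a string were 72.4%, 49.1%, 59.7% and 87.2% in the same order. At Snx20 and in intron 1 of B3gnt3 the string lay outside the B1 elements. Those 3 strings are shown with 40 bases on each side, on the minus strand, with the string in capitals.
Snx20 intron 1, chr8:88635019-88635106: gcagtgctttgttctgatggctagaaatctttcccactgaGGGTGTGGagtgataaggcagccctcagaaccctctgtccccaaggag
Snx20 intron 2, chr8:88631259-88631346: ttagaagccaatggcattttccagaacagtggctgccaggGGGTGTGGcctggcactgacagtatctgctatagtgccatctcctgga
B3gnt3 intron 1, chr8:71698481-71698568: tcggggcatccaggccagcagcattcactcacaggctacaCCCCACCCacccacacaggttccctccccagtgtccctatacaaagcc
Both Snx20 intervals thus held the same string, GGGTGTGG, in the direction of the gene, at 1062 and 4822 bp from the start site. The SOX strings (CCATTGTT, CCATTGTC, CCTTTGTT and CCTTTGTC) and the OCT string (ATTTGCAT) were in none of the 4 intervals, where 12% to 45.1% and 3.45% to 13.7% of intervals of like length held them. An AP-1 string (TGACTCA or TGAGTCA) was in the B3gnt3 start-site interval alone, and in 54.3% of intervals of its length. The 250 bases before the RefSeq start of B3gnt3, shown because a broad peak covered this promoter in all 4 groups, held none of the strings. They lay almost wholly between the narrow blocks of that peak in every group.
B3gnt3 promoter, chr8:71701801-71702050, minus strand: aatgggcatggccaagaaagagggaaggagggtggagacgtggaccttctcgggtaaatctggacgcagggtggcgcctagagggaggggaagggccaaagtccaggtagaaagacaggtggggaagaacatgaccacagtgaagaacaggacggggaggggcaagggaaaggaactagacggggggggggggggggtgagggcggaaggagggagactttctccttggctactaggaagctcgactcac
Of its bases 60% were G or C. Over 32851 reference promoters, with 50 further bases after the start, 29.7% held a KLF string, 4.83% a SOX string, 1.74% an OCT string and 5.20% an AP-1 string. Snx20 was not in the promoter table. A match to a string is not a bound site.

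Genes of the same families and pathway were then examined at their own start sites. Among the 9 B3GNT genes, which encode related N-acetylglucosaminyltransferases, B3gnt3 was the only one with a listed interval within its body or 20 kb (11.1%, against 8.14% of all protein-coding genes with a more open interval in reprogramming). B3gnt3 was chosen on this contrast, and without it the count was 0 of 8. Start-site peaks were present in 6 of the 9 in each group (66.7%), against 62.6% to 63.5% of all protein-coding genes, and their median fold was 4.64 in MEF control and 3.75 in reprogramming control, against 4.91 and 3.99 over all genes with a peak. B3gntl1 had the highest folds (6.80, 6.24, 6.52 and 6.42 in MEF control, MEF KO, reprogramming control and reprogramming KO), B3gnt9 had 5.55, 5.60, 4.02 and 3.81, and B3gnt5 had 4.77, 4.77, 5.07 and 5.13. B3gnt7 had a peak in reprogramming alone (3.48 and 3.53), B3gnt2 in MEF alone (4.51 and 4.01), and B3gnt4 and B3gnt6 in no group.

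Of 10 other genes that act in building selectin ligand glycans, 7 had a start-site peak in each group. The highest folds were at the galactosyltransferase B4galt4 (7.93, 8.34, 7.85 and 7.18) and at C1galt1c1, the chaperone of core 1 synthase (7.81, 7.61, 7.14 and 6.89). Fut7, St3gal4 and Gcnt1 had none. A listed interval was found for 1 of the 10 (10%, against 8.14% of all protein-coding genes), B4galt1, whose interval from -7659 to -6434 bp had 86.0, 69.9 and 102 normalised counts in control and 122, 135 and 149 in KO. KO was 1.58 times control. Of 7 selectins and their ligands, 0 had a listed interval, against the same 8.14%. The start sites of Selp and Sele, the P- and E-selectins of endothelium, had a peak in MEF alone (4.43 and 4.28 for Selp, 5.67 and 5.83 for Sele). Selplg, which encodes the PSGL-1 protein that SNX20 binds, had one in reprogramming alone (1.76 and 2.01). These were weak peaks, against median folds of 3.99 and 3.88 over all genes with a peak. A peak in both reprogramming groups alone was found at 2.63% of all protein-coding genes. Cd34 had folds between 5.13 and 5.47 in the 4 groups. Genes with a peak in some groups alone or in none were singled out after their values were seen. KO and control lists of the same context shared the presence or absence of a start-site peak at every gene of these 3 lists.

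Sorting nexins, membrane-binding proteins of endosomal transport, had open start sites almost throughout: 28 of 30 had a peak in all 4 groups, against 58.5% of all protein-coding genes, with a median fold of 5.52 in MEF control and 4.27 in reprogramming control. Snx20 was the only one without a peak in MEF control, and Snx31 the only one without a peak in reprogramming KO. The highest folds in MEF control were those of Snx2 (7.39), Snx11 (7.25), Snx16 (6.91) and Snx19 (6.35). A more open listed interval lay in the body or within 20 kb of 6 of 30 sorting nexin genes (20%, against 8.14% of all protein-coding genes), the 6 being Snx6, Snx11, Snx14, Snx20, Snx21 and Snx30. Snx20 was chosen on this contrast, and without it the count was 5 of 29 (17.2%). At Snx6, a retromer component, the interval covered the start site, with 519.6, 538 and 521 normalised counts in control and 683, 704 and 659 in KO, 1.30 times as many. At Snx30 the interval lay inside the gene, from 5033 to 5748 bp, and had 131 ± 19.7 in control and 202 ± 29.8 in KO (SD, n = 3), where the MEF mean was 3.95. The intervals near Snx11, Snx14 and Snx21 had their nearest edges at -18063, -17396 and 25058 bp from the start sites of these genes, and KO was 2.64, 1.47 and 2.94 times control. The interval near Snx14 is the start-site interval of Gm20537, named above among the profiles like that of Snx20. Of the 21 cell type markers, Thy1 alone had a listed interval (4.76%, against 8.14% of all protein-coding genes), from 16033 to 16347 bp downstream of its start site, with 8.74 ± 1.89 normalised counts in control and 35.6 ± 7.52 in KO (SD, n = 3). No list had an interval that was more closed in KO or listed in MEF, where 0.369% of all protein-coding genes had a more closed interval in reprogramming and 2.97% a more open one in MEF.

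**Figure D4:**
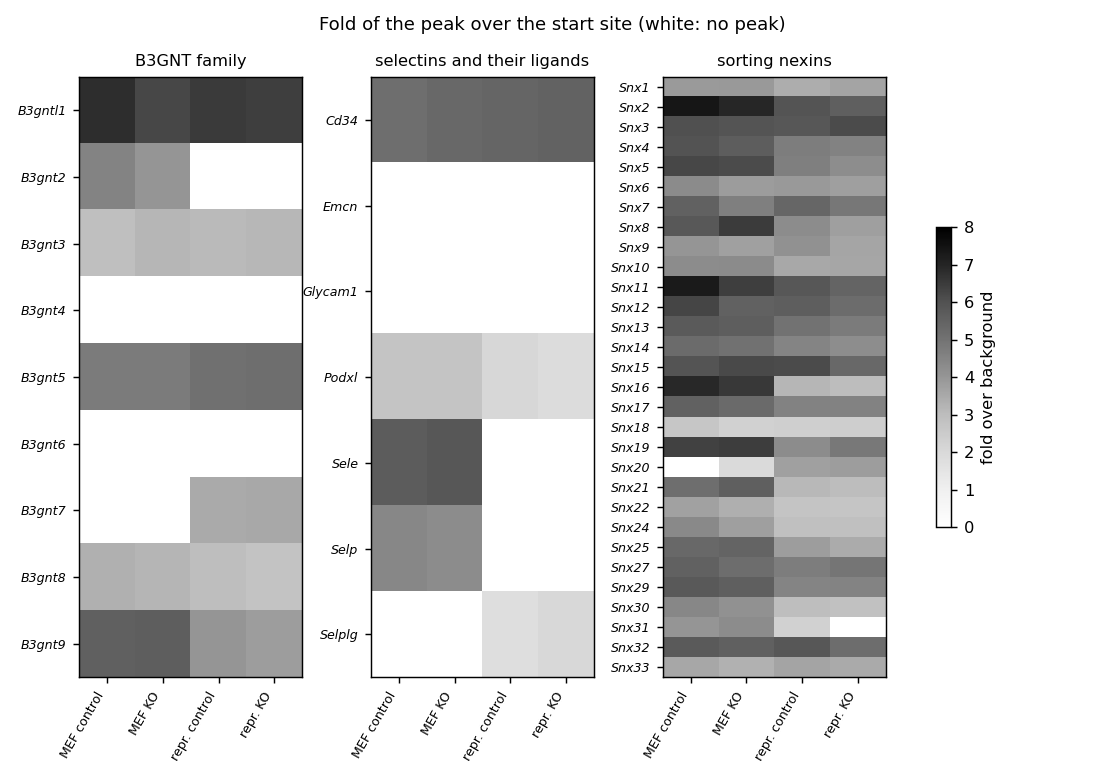
Fold over background of the broad peak that covers the start site (grey scale, white for no peak) in the 4 groups (columns) for the B3GNT family, the selectins and their ligands and the sorting nexins (rows). B3gnt3 is grey in every column, Snx20 is white in MEF control alone, and Selplg is white in both MEF columns while pale grey in reprogramming.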

How the data were processed

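Omni-ATAC-seq libraries were grouped by their labels into 4 groups of 3. The authors aligned reads to GRCm38.p6 with BWA, pooled the replicates of a group before broad peak calling with MACS2 (per the methods at a q-value under 0.1), then counted reads over all peaks and tested groups with DESeq2. Raw counts are in the deposited tables beside a normalised signal, each count divided by its library's size factor, for the intervals with an adjusted p-value under 0.05. The deposited peak lists give a fold enrichment (a ratio) and a −log10 q-value. The tables also hold the authors' log2 fold changes, standard errors, test statistics and p-values, which were not used. A table column giving the mean normalised count over all 12 libraries was used to recover the MEF mean of 6 libraries, and at the 70 intervals in both tables the recovered mean differed by at most 3.4e-12%. Size factors ran from 0.630 to 1.46. The reads in listed intervals, 33936 to 86490 per MEF library and 141616 to 324141 per reprogramming library, are not the sequencing depth, which was not used here.

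Genes came from GENCODE M21, and the reference chromosomes contained all 661623 peaks (0 extended beyond an end). Log2 ratios used a pseudocount of 1. Peaks were shared at an overlap of 1 bp. B1 elements were found with blastn 2.17.0 (E-value under 1e-05, at least 60 aligned bases) with a probe written by hand, not from a repeat database. In the merged intervals 92.0% of matched bases were masked as repeats in the reference and a shuffled probe gave 0 matches. The search was tested on simulated sequence. The named genes were B3gnt3, Snx20, neighbours with a start site in the windows, list members with a listed interval or else up to 4 by peak fold, Piwil2, and the 5 nearest profiles for each gene. Further list members, such as those with a peak in some groups or none, were named after their values were seen. The genes, windows and lists were chosen with earlier results of these data known, and no test was run. Start coordinates are counted from 1. Python 3.11.15, pandas 2.3.3 and pysam 0.24.0 were used. Intervals of counting error cover counting alone. Results on a gene of the lists and on a B1 copy were among those left out.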

Additional observations from a re-analysis of the deposited data

How the results depend on the processing

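Pairing libraries by replicate number gave, by construction, the same log2 ratios of KO over control (1.48 and 0.39 at the B3gnt3 intron and start site, 1.54 and 1.48 at those of Snx20), with an SE over the 3 pairs of 0.07, 0.08, 0.03 and 0.09. No paired test was run, as no test was. Leaving out 1 library gave ranges of 1.42 to 1.53 at the B3gnt3 intron, 0.34 to 0.43 at its start site, 1.51 to 1.56 at the Snx20 intron and 1.42 to 1.54 at its start site. With unscaled raw counts the log2 ratios were 1.33, 0.24, 1.40 and 1.34 in the same order. Divided by the total of the listed intervals they were 0.77, -0.32, 0.84 and 0.78, so the B3gnt3 start site reversed. That total is itself higher in KO because 1522 of the 1608 listed intervals were more open, so this scaling removes part of any such change by its construction. A pseudocount of 10 gave 1.39 at the B3gnt3 intron and 1.45 at the Snx20 intron, and for reprogramming control over MEF it gave 1.45 (from 1.74) at the B3gnt3 intron, 1.37 (from 1.64) at the Snx20 intron and 2.27 (from 2.57) at the Snx20 start site. Of 13 reprogramming control peaks that overlapped a KO peak, 8 did so at a reciprocal overlap of 50%. B1 elements in the listed intervals numbered 3 in place of 1 with 500 bp added on each side and elements touching the interval counted, and 4 with all elements in the added sequence, a setting chosen after seeing the data. Listed intervals within 2000 bp of a start site numbered 70, against 41 within 1000 bp. In all, 42 of 59 alternatives stayed within the spread between libraries, or within 1.5 times for counts, among them windows of 0, 10 and 50 kb, which held the same number of listed intervals (4). Leaving out 1 of 3 libraries or pairing them cannot exceed that spread by construction, so this count is no measure of robustness. With raw counts, unscaled or divided by the total of the listed intervals, every log2 ratio of KO over control went beyond that spread. The intron values rest on 64 to 98 reads in each control library.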
